A study of Rattus norvegicus with 14 samples.

Results

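The genes described here belong to families of amino acid transporters. They were measured in the livers of 14 lean (fa/+) female Zucker rats about 15 weeks old. Members were chosen by symbol: every gene whose symbol starts with Slc1a, Slc6a, Slc7a, Slc36a, Slc38a or Slc43a, leaving out Slc7a11 and Slc1a2, among array probes annotated with a single gene symbol. The rule took 51 of 14506 measured genes, from 6 families: 16 Slc6a genes, 14 Slc7a, 8 Slc38a, 6 Slc1a, 4 Slc36a and 3 Slc43a genes. One of them, Slc7a6os, matches by name but encodes a protein from the strand opposite Slc7a6 and no transporter. Some members carry other solutes, such as creatine (Slc6a8) and nucleobases (Slc43a3). In the extract group, 7 rats ate standard diet with 0.05% (w/w) of a rosemary extract that is 40% carnosic acid, an antioxidant diterpene of rosemary. The 7 control rats ate the standard diet alone. Every rat, controls included, had 1 fa allele, a leptin receptor mutation that leads to obesity only when both copies carry it, and liver was taken after 64 days. The series title gives the extract as 0.5% of the diet, the sample labels as 0.05%; the labels' dose is used.

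Amino acid transporters carry amino acids and related solutes across the plasma membrane and across the membrane of the lysosome. In the liver they bring in glutamine, alanine and glycine for glucose and urea production, cationic amino acids such as arginine, and taurine and branched-chain amino acids. The Slc38a family couples uptake to sodium and holds the system A and system N carriers, while several Slc7a proteins reach the membrane only when joined to the heavy chain encoded by Slc3a2. Slc6a carriers use sodium and chloride, the Slc36a1 carrier uses protons, and those of Slc43a1 and Slc43a2 move large neutral amino acids down their gradient. Some of these genes are induced when amino acids are scarce, through the transcription factor ATF4.

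Levels are log2 RMA values, 1 array per rat, and each gene had 1 such probe. Over all genes, pairs of arrays correlated between 0.984 and 0.997, and log2 folds (extract minus control) had a median standard error of 0.087; the number of arrays limits the precision. Expression was compared in limma, with a Benjamini-Hochberg adjusted p under 0.05 over all 14506 genes as the threshold. This passed 457 genes (3.15%), with 290 higher in extract rats (2.00%) and 167 lower (1.15%). An unequal-variance test per gene passed 1.56%. Hepatocyte markers averaged 12.67 to 12.75 per rat with the extract and 12.64 to 12.82 in controls, and 0 of 13 passed in limma (0 at an unadjusted p under 0.05, 0 in an unequal-variance test). In whole liver, fewer cells of a type and less RNA per cell cannot be told apart.

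The extract was accompanied by few differences past the threshold in amino acid transporter transcripts, and these were small. Slc38a9, a lysosomal carrier that senses arginine, rose 1.27-fold, and Slc43a2, a carrier of large neutral amino acids, fell to 0.783 of the control level. The other 49 genes did not pass. The count of 2 of 51 (3.92%) was near the 3.15% of all genes, so it sets these families apart from no others. Both genes were among the 20 with a mean of at least 6 over the 14 arrays, called liver-expressed here, where 383 of 7383 genes of the whole array (5.19%) passed. Of the 31 dimmer members, limma passed 0 (3 at an unadjusted p under 0.05, 9.68%, 0 in the unequal-variance test). Of all 7123 genes under that level 1.04% passed, and 8.06% had such an unadjusted p. The cut fell in a gap: Slc36a4 lay just inside with a mean of 6.10 and Slc38a6 just outside with 5.48. Probes differ in brightness, so a gene under the cut is dim on this array and not shown to be absent.

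The median log2 fold was -0.04 over the 20 liver-expressed members and 0.02 over the 31 dim ones, beside -0.01 over all genes of at least 6. Among liver-expressed members 9 folds were positive and 11 negative. For 13 of these 20 the 95% interval of the log2 fold lay wholly within 0.5 of 0, as it did for 31 of 31 dim members. RMA compresses folds near background, so the narrow intervals of dim genes do not bound their true change. At an unadjusted p under 0.05 there were 9 members (17.6%), against 14.8% of all genes. Of the liver-expressed members these were 6 (30.0%), against 21.4% of all genes with a mean of at least 6.

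**Figure D1:**
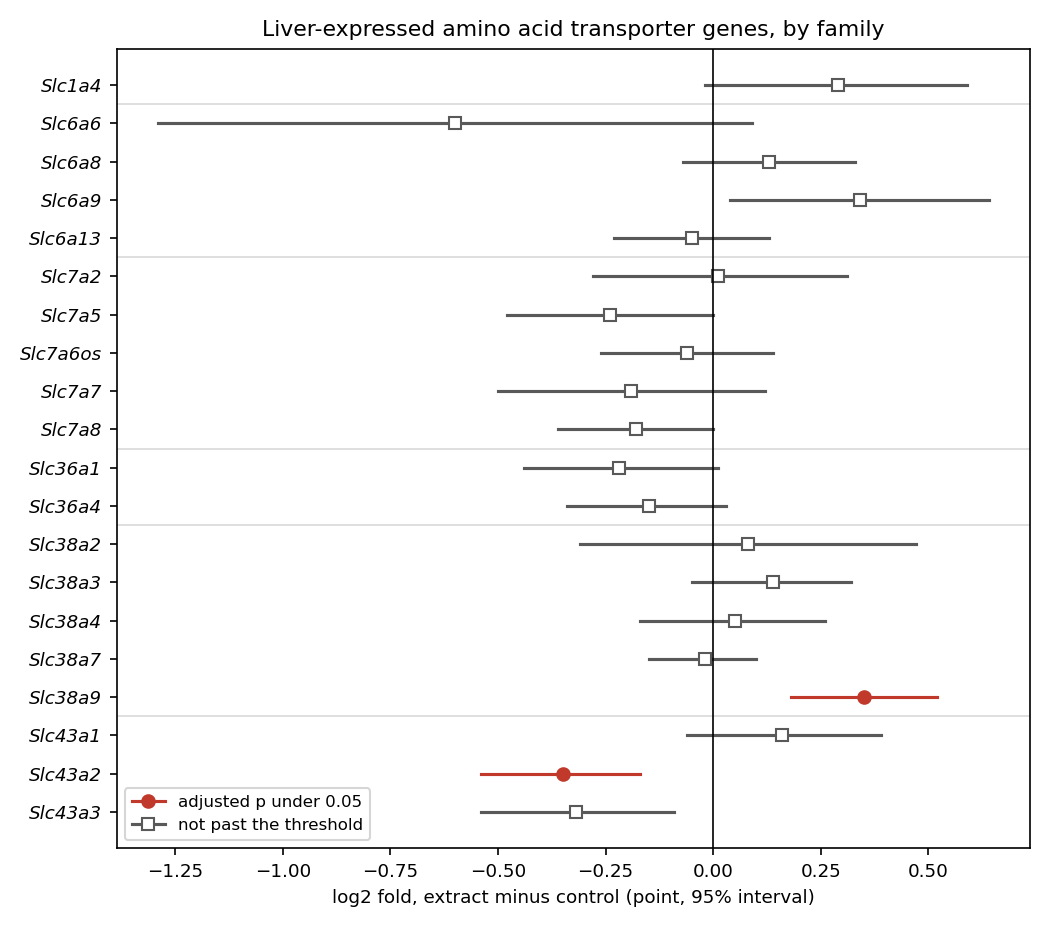
Log2 folds (extract minus control) of the 20 liver-expressed genes, grouped by family, with 95% intervals from limma; filled points passed an adjusted p of 0.05. Slc38a9 (0.35) and Slc43a2 (-0.35) passed, and Slc6a6 had the widest interval (-1.29 to 0.09).

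**Figure D2:**
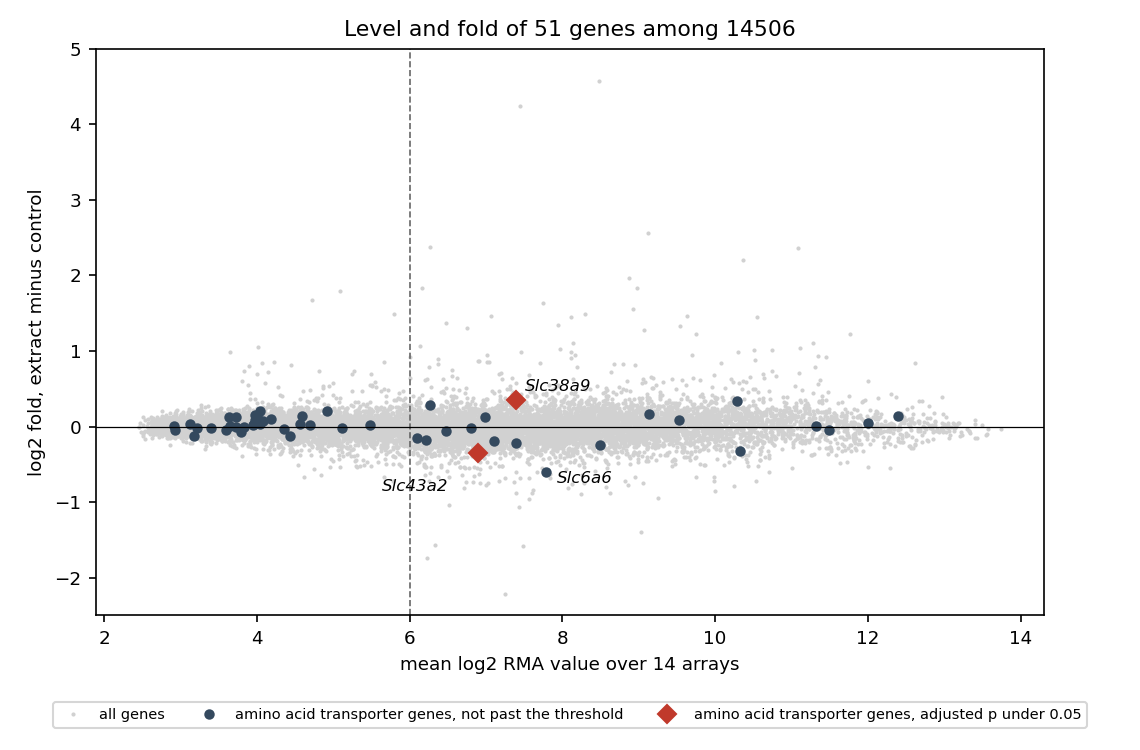
Mean log2 RMA value over 14 arrays (horizontal) against log2 fold, extract minus control (vertical), for the 51 transporter genes over all 14506 genes in grey; the dashed line marks the mean of 6. Member folds ran from -0.60 to 0.35, while folds over all genes reached 4.57.

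The Slc38a family held the gene that rose. Slc38a9 encodes a lysosomal membrane protein that senses arginine and signals to the growth kinase mTORC1. With the extract its lowest, median and highest values were 7.37, 7.56 and 7.74, against 6.91, 7.26 and 7.36 in controls. Every extract rat thus lay above every control rat, though the lowest extract rat and the highest control rat were close; 1.54% of all genes had groups that did not overlap. The log2 fold was 0.35 ± 0.08 (SE, n = 7 each; 95% interval 0.18 to 0.52; adjusted p = 0.023). The call was lost without extract rat 2 or 6 (adjusted p = 0.0597 and 0.0505) and in the unequal-variance test (0.0562).

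The other liver-expressed Slc38a genes did not pass. Slc38a3, the system N glutamine carrier SNAT3, ran from 12.22 over a median of 12.42 to 12.71 in extract rats and from 11.98 over 12.35 to 12.48 in controls. Its interval was -0.05 to 0.32 (log2 fold 0.14, adjusted p = 0.52), with 3 extract rats above all controls. Slc38a4, the hepatic system A carrier SNAT4, ran from 11.72 over 12.05 to 12.22 with the extract and from 11.54 over 12.05 to 12.22 in controls. At this rounding the groups shared their median and their highest value, with a log2 fold of 0.05 (interval -0.17 to 0.26). Slc38a2, the system A carrier SNAT2 that cells induce when amino acids are scarce, spread widely: 8.77, 9.72 and 10.28 were its lowest, median and highest extract values, against 9.02, 9.47 and 9.84 in controls. Extract rats lay both above and below the whole control range, and the log2 fold of 0.08 had an interval of -0.31 to 0.47. Slc38a7, a lysosomal exporter of glutamine and asparagine, had the smallest spread of the 20, with extract values of 6.68 to 6.97 and control values of 6.68 to 6.87. Its log2 fold was -0.02 (interval -0.15 to 0.10). The dim genes Slc38a1, Slc38a5 and Slc38a6 had log2 folds from -0.07 to 0.02, with Slc38a1, a system A carrier of brain, first by p (-0.07, adjusted p = 0.66).

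The Slc43a family held the gene that fell. Slc43a2 encodes LAT4, which moves branched-chain amino acids, methionine and phenylalanine. Its lowest, median and highest values were 6.40, 6.75 and 6.92 in extract rats, against 6.86, 7.04 and 7.28 in controls. Of the 7 extract rats 5 lay below every control, and the ranges met between 6.86 and 6.92. The log2 fold was -0.35 ± 0.09 (SE, n = 7 each; interval -0.54 to -0.17; adjusted p = 0.033). This call was lost without extract rat 1, 2, 4 or 6 or control rat 2, 5, 6 or 7 (between 0.0505 and 0.0753), with median centring (0.0671), with every probe of the array in the fit (0.0626) and in the unequal-variance test (0.0834).

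Slc43a3, which despite its family name carries nucleobases, did not pass. Its extract values were 9.90, 10.12 and 10.51 (lowest, median, highest), against 10.10, 10.51 and 10.78 in controls, with 3 extract rats below all controls. The log2 fold of -0.32 (interval -0.54 to -0.09) had an adjusted p of 0.13, which became 0.0313 without control rat 1 and 0.0351 with array weights. Slc43a1, which encodes LAT3, a hepatic carrier of branched-chain amino acids, had values of 8.93, 9.28 and 9.61 with the extract and of 8.76, 9.03 and 9.35 in controls. Its log2 fold was 0.16 (interval -0.06 to 0.39), with a sign opposite to that of its relatives.

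Markers of macrophages were measured beside these carriers. In a list of 16 measured markers 15 folds were negative (median log2 fold -0.26), 13 had an unadjusted p under 0.05 and 2 passed: the scavenger receptor Marco (-0.73, adjusted p = 0.00586) and the Kupffer cell receptor Vsig4 (-0.51, adjusted p = 0.024, and 0.097 in the unequal-variance test). Over all genes with a mean of at least 6, 21.4% had such an unadjusted p and 5.19% passed. The count of macrophage markers called was 5 after repeated quantile normalization and without extract rat 7. It was 1 with the filter at a mean of 6, with every probe, in the unequal-variance test and without extract rat 1 or 2. The mean of the list per rat ran from 8.74 to 9.02 with the extract and from 9.06 to 9.38 in controls, with no overlap. RMA gives no zero level, and the dimmest of the 16, Marco, had a mean of 5.78. Of 7 measured endothelial markers 7 had a negative fold (median -0.14) and limma passed 0 (2 at an unadjusted p under 0.05, 0 in the unequal-variance test). The part of these cells in the transporter values was not tested.

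**Figure D3:**
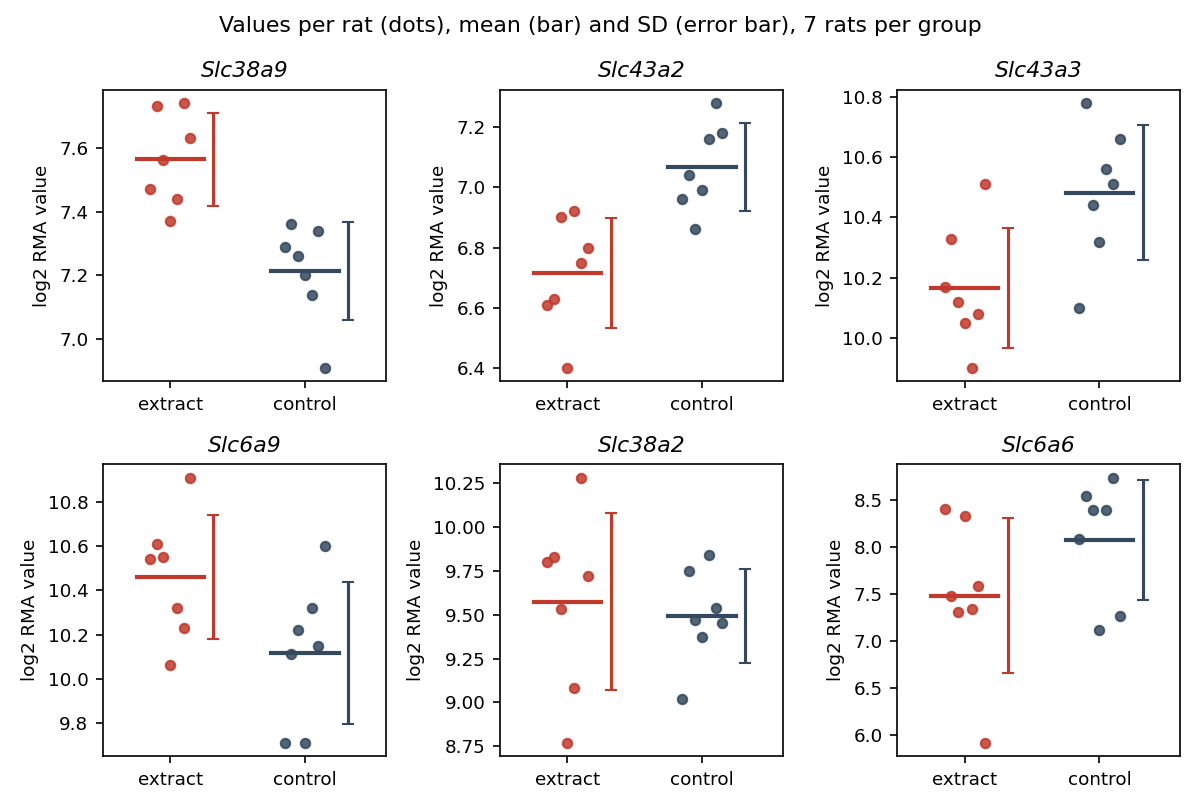
Log2 RMA values per rat for 6 transporter genes, extract left and control right; dots are rats, bars the mean and error bars the SD over 7 rats, and each panel has its own vertical scale. The groups of Slc38a9 do not overlap, those of Slc43a2 meet between 6.86 and 6.92, and Slc6a6 runs from 5.92 to 8.74 over the 14 rats.

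Promoters are shown for both members that passed, and for Slc3a2 and Trib3, which are described further on. The windows are those of RefSeq on GRCr8, 250 bases before to 50 after each annotated start, in the direction of the gene; the start was not measured here. They were searched on both strands for the core of the antioxidant response element, TGACNNNGC, which NRF2 binds, and for a core of the amino acid response element, TGATGNAA, which ATF4 binds with a C/EBP partner. Capitals mark a match; a window with none is in lower case throughout.
Slc38a9 (chr2:46035818-46036117, plus strand): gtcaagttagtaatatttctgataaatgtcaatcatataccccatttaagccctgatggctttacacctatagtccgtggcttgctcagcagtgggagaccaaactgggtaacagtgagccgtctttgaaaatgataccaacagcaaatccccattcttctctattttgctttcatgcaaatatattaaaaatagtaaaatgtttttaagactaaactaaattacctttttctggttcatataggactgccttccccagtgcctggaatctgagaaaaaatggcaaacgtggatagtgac
Slc43a2 (chr10:60874588-60874887, plus strand): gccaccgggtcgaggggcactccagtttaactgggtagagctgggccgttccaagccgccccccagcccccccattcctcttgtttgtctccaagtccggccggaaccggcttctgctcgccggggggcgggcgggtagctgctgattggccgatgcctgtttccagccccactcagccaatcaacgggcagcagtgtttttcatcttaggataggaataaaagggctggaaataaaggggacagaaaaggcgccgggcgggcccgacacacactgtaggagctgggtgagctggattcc
Slc3a2, upstream start (chr1:215048015-215048314, minus strand): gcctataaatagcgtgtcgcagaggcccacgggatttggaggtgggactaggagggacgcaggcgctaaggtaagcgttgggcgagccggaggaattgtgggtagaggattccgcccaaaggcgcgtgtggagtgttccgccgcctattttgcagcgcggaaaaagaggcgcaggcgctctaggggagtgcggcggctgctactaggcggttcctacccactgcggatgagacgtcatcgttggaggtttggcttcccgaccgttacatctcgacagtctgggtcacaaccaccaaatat
Slc3a2, downstream start (chr1:215039621-215039920, minus strand): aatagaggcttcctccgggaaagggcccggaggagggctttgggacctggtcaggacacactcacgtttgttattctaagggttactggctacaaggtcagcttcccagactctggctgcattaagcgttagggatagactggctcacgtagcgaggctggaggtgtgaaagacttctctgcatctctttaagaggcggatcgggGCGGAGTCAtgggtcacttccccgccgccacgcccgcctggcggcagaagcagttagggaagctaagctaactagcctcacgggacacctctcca
Trib3 (chr3:161275484-161275783, minus strand): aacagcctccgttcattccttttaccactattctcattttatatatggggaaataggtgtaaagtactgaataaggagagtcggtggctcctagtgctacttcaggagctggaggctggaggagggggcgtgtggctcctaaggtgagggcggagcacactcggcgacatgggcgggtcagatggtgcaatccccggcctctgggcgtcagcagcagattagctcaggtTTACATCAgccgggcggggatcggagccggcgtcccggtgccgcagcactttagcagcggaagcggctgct
Neither motif is in these windows of Slc38a9 and Slc43a2. The downstream window of Slc3a2 holds 1 antioxidant core and that of Trib3 holds 1 amino acid response core, both read on the opposite strand. Of the 51 members 39 had windows, 41 in all, and 6 of the 41 held the antioxidant core (14.6%), against 12.1% of all 33469 windows. The 6 genes were Slc36a1, Slc38a2, Slc6a11, Slc6a6, Slc7a1 and Slc7a7, of which 0 passed in limma. The amino acid response core was in 3 of 41 (7.32%), those of Slc1a4, Slc38a1 and Slc7a1, against 3.98% of all windows. Slc7a1 held both, without overlap between the matches. A match describes the letters only.

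In the Slc7a family limma passed 0 of 14 genes (5 at an unadjusted p under 0.05, 0 in the unequal-variance test). Slc7a2, the hepatic cationic amino acid carrier CAT2, had extract values of 11.13, 11.34 and 11.57 (lowest, median, highest), against 10.64, 11.40 and 11.74 in controls. The extract rats lay inside the control range, with a log2 fold of 0.01 and an interval of -0.28 to 0.31. Its sign turned in several of the alternatives listed in the closing section. Slc7a1, which encodes CAT1, the widespread cationic carrier, was dim and first by p in the family. Its values were 4.77, 5.07 and 5.22 with the extract and 4.56, 4.85 and 4.98 in controls, with 4 extract rats above all controls (log2 fold 0.20, interval 0.02 to 0.38, adjusted p = 0.26).

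The light chains that pair with the Slc3a2 heavy chain all had negative folds among those liver-expressed, and 0 passed. Slc7a5, the light chain LAT1 for large neutral amino acids, had 8.09, 8.39 and 8.64 with the extract, against 8.27, 8.60 and 9.03 in controls (log2 fold -0.24, interval -0.48 to -0.0029, adjusted p = 0.33). Slc7a8, the light chain LAT2, had 5.87, 6.15 and 6.23, against 6.02, 6.36 and 6.57 in controls (log2 fold -0.18, interval -0.36 to -0.0045, adjusted p = 0.32). Of the 7 extract rats, 2 lay below all controls in Slc7a5 and 1 in Slc7a8. Of the 7 controls, 2 lay above all extract rats in Slc7a5 and 5 in Slc7a8. Slc7a7, the light chain y+LAT1, which macrophages also express, had 6.61, 7.03 and 7.44, against 6.86, 7.03 and 7.65 in controls. Its medians were equal at this rounding (log2 fold -0.19, interval -0.50 to 0.12, adjusted p = 0.61). Slc7a6os had extract values of 6.26 to 6.60 and control values of 6.17 to 6.84 (log2 fold -0.06, interval -0.26 to 0.14). The 9 dim Slc7a genes had log2 folds from -0.12 to 0.20.

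Slc3a2 itself, which encodes the heavy chain CD98hc and lies outside the rule, rose 1.37-fold. Its values were 10.35, 10.62 and 11.01 with the extract, against 9.99, 10.18 and 10.48 in controls, and 6 of 7 extract rats lay above every control (log2 fold 0.45 ± 0.10 SE, adjusted p = 0.015; 0.066 in the unequal-variance test). The log2 value of the heavy chain minus that of each light chain is given per rat as a description, with no test, because the pairs were chosen after their folds were seen to differ in sign and all share the Slc3a2 values. Against Slc7a5 this difference averaged 2.28 ± 0.26 in extract rats and 1.59 ± 0.20 in controls (SD, n = 7 each), and every extract rat lay above every control. Against Slc7a8 it was 4.54 ± 0.18 with the extract and 3.90 ± 0.15 in controls (SD, n = 7 each), again with no overlap. Against Slc7a7 it was 3.65 ± 0.41 and 3.01 ± 0.30 (extract and control, SD, n = 7 each), with 4 of 7 extract rats above all controls.

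**Figure D4:**
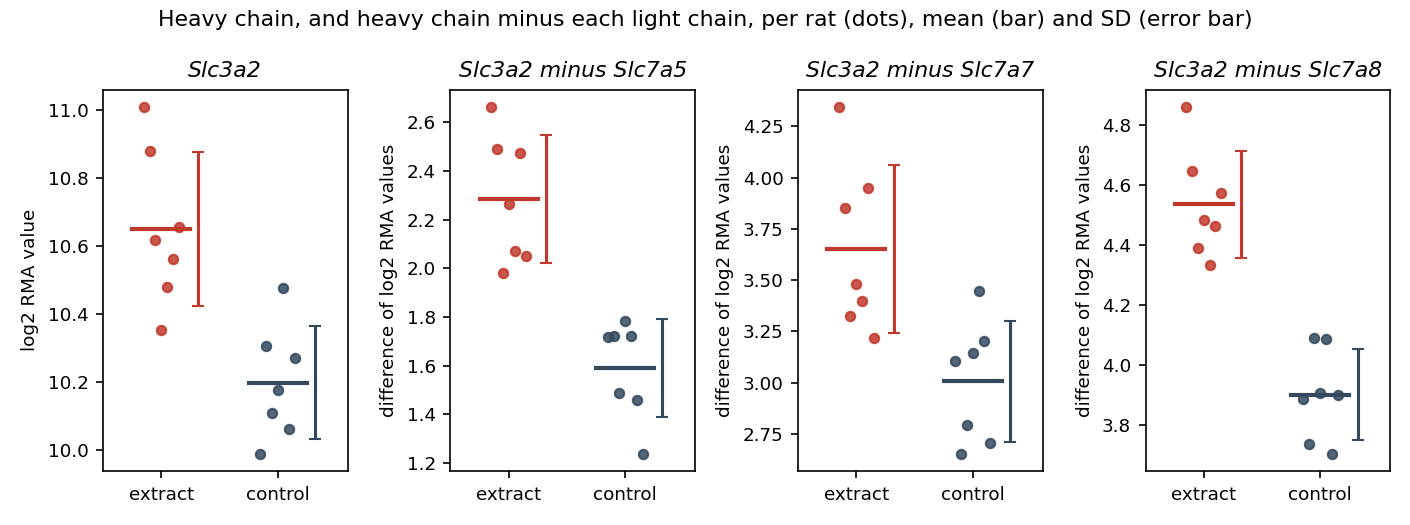
Left, log2 RMA values of the heavy chain gene Slc3a2 per rat; right, the difference Slc3a2 minus Slc7a5, Slc7a7 and Slc7a8 per rat, extract left and control right in each panel. Dots are rats, bars the mean and error bars the SD over 7 rats; the differences from Slc7a5 and Slc7a8 do not overlap between the groups.

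Slc7a11, the cystine and glutamate exchanger that pairs with the same heavy chain and is a known NRF2 target, was left out by the rule, as was the perivenous glutamate carrier Slc1a2. Slc7a11 had 3.80, 4.33 and 5.47 with the extract, against 3.57, 3.60 and 3.84 in controls (log2 fold 0.84, adjusted p = 0.048), and leaving out any 1 rat other than extract rat 4, 6 or 7 ended the call (0.0514 to 0.0927). So did repeated quantile normalization (0.0558), median centring (0.0573), the replicate block (0.0574), an intensity trend (0.0832), every probe in the fit (0.102) and the unequal-variance test (0.241). Slc1a2 had a log2 fold of 0.18 (interval -0.17 to 0.53, adjusted p = 0.70).

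In the Slc6a family limma passed 0 of 16 genes (1 at an unadjusted p under 0.05, 0 in the unequal-variance test). Slc6a9, the glycine carrier GLYT1, was first by p. Its lowest, median and highest values were 10.06, 10.54 and 10.91 with the extract, against 9.71, 10.15 and 10.60 in controls. The ranges overlapped from 10.06 to 10.60, with a log2 fold of 0.34 (interval 0.04 to 0.64, adjusted p = 0.25). Slc6a6, the taurine carrier TAUT, had 5.92, 7.48 and 8.41 with the extract, against 7.12, 8.40 and 8.74 in controls. Extract rat 7 stood lowest at 5.92 and the next extract rat at 7.31, while control rats 4 and 7 (7.12 and 7.27) lay among the extract rats. The log2 fold of -0.60 was the largest in size of all members, but its interval ran from -1.29 to 0.09 (adjusted p = 0.43), and it was -0.34 without extract rat 7 and -0.76 without control rat 4. Slc6a13, the hepatic GABA, betaine and taurine carrier GAT2, had 11.28, 11.36 and 11.76 with the extract and 11.29, 11.52 and 11.67 in controls. Its log2 fold of -0.05 had an interval of -0.23 to 0.13, so a change of 0.5 in log2 lay outside it. Slc6a8, the creatine carrier, had 6.81, 7.10 and 7.26, against 6.50, 6.95 and 7.16 in controls (log2 fold 0.13, interval -0.07 to 0.33).

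The remaining 12 Slc6a genes were dim, with means from 3.12 to 4.69 and log2 folds from -0.12 to 0.12. They include the carriers of noradrenaline (Slc6a2), dopamine (Slc6a3) and serotonin (Slc6a4), known mainly from neurons, and Slc6a19, a carrier of neutral amino acids in gut and kidney. The first by p was Slc6a5, the neuronal glycine carrier GLYT2, with 3.58 to 3.83 in extract rats and 3.48 to 3.71 in controls (log2 fold 0.12, adjusted p = 0.39).

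All 6 Slc1a genes had positive folds and limma passed 0 (0 at an unadjusted p under 0.05, 0 in the unequal-variance test). Slc1a4, the carrier ASCT1 of alanine, serine and cysteine, was the liver-expressed one. It had 6.10, 6.42 and 6.77 with the extract, against 5.51, 6.10 and 6.55 in controls, with 2 extract rats above all controls. Its log2 fold was 0.29 (interval -0.02 to 0.59, adjusted p = 0.38). Slc1a3, the glutamate carrier of astrocytes, was dim and first by p: 3.97, 4.05 and 4.68 with the extract, against 3.76, 4.01 and 4.03 in controls. Extract rat 4 alone stood at 4.68, and without it the log2 fold was 0.10 in place of 0.20. The other 4 had log2 folds from 0.04 to 0.10, among them Slc1a5, the glutamine carrier ASCT2 (0.04, interval -0.10 to 0.18).

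In the Slc36a family limma passed 0 of 4 genes (0 at an unadjusted p under 0.05, 0 in the unequal-variance test). Slc36a1, the proton-coupled carrier PAT1 that exports small amino acids from lysosomes, had 7.02, 7.34 and 7.45 with the extract, against 7.04, 7.65 and 7.75 in controls. Of the 7 controls 5 lay above all extract rats, and the log2 fold was -0.22 (interval -0.44 to 0.01, adjusted p = 0.36). Slc36a4, the carrier PAT4 of proline and tryptophan, had 5.73, 5.98 and 6.26, against 5.86, 6.22 and 6.33 in controls (log2 fold -0.15, interval -0.34 to 0.03). Of the dim pair, Slc36a3 was first by p (log2 fold 0.13, adjusted p = 0.46). Lysosomal carriers among the members thus had log2 folds of 0.35 (Slc38a9), -0.22 (Slc36a1) and -0.02 (Slc38a7).

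Rats differed most in Slc6a6. Its pooled SD within groups was 0.74 on the log2 scale, or 1.67-fold for 1 SD, larger than that of 99.9% of the 7383 genes with a mean of at least 6. Slc38a2 came next, with a pooled SD of 0.40 (0.50 with the extract, 0.27 in controls), larger than that of 97.5% of those genes. The median over the 20 liver-expressed members was 0.21, beside 0.19 over the 7383 genes. Slc38a7 had the smallest, 0.08, and Slc38a9 and Slc43a2 lay at 0.15 and 0.17. Slc7a2 varied in controls (SD 0.40) and little in extract rats (SD 0.14). In most of these members extract rat 4 and control rat 1 stood lowest, or tied for lowest, in their groups. Their arrays had the lowest limma array weights (0.463 and 0.410). Control rat 1 was lowest in Slc7a2 (10.64), and both were lowest in Slc38a2 (8.77 and 9.02), but neither in Slc6a6 (8.33 and 8.09). The part of these arrays in the spread was not tested.

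**Figure D5:**
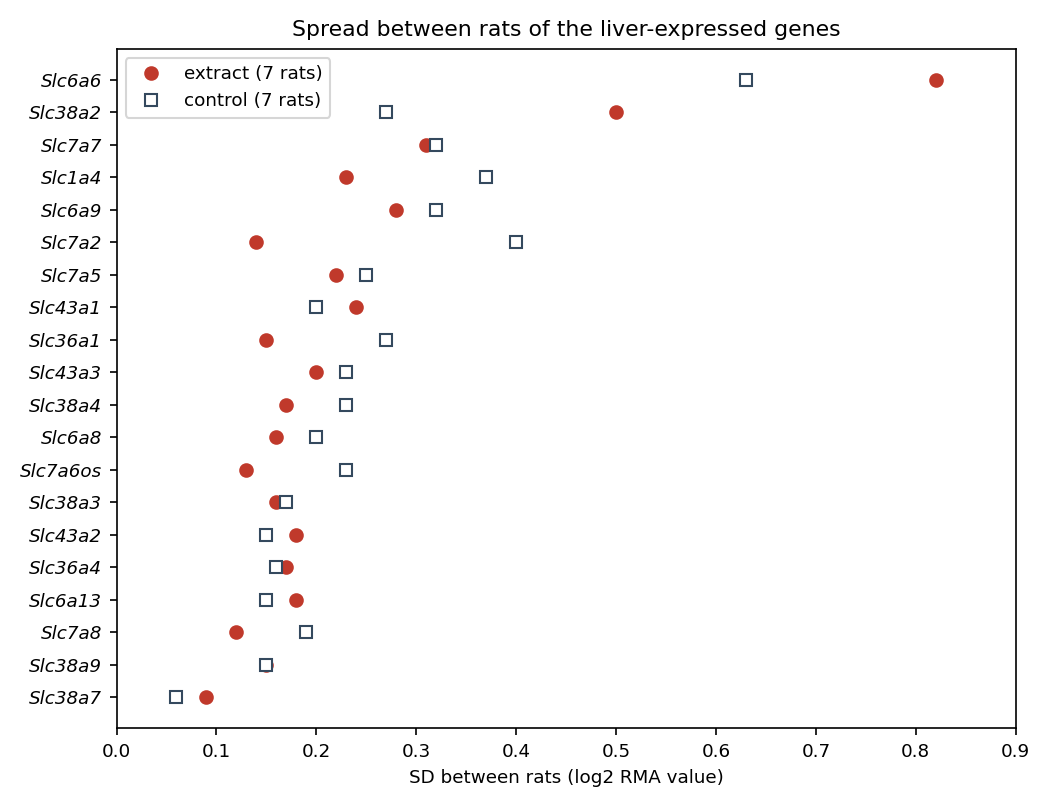
SD between the 7 rats of each group, in log2 RMA values, for the 20 liver-expressed genes, ordered by pooled SD; filled points are extract rats and open squares control rats. Slc6a6 (0.82 with the extract, 0.63 in controls) stands apart from the rest, and Slc38a7 lies lowest.

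Genes that work with these carriers were also measured. Over all genes 3.15% passed, and 5.19% of those with a mean of at least 6. Of 9 measured partners and regulators of carriers 2 rose and 1 fell (33.3%). Beside Slc3a2, Atp1b1 rose 1.29-fold; it encodes the beta subunit of the sodium pump, whose gradient drives sodium-coupled uptake (9.33 to 9.61 with the extract against 8.90 to 9.35 in controls; adjusted p = 0.015, and 0.054 in the unequal-variance test). Sgk1, a kinase known to activate several carriers, fell to 0.707 of the control level, with every extract rat (8.39 to 8.96) below every control (median 9.15, highest 9.24; adjusted p = 0.00223). Of 23 other amino acid and peptide carriers 1 rose (4.35%, near the share over all genes). It was Slc17a5, the lysosomal sialic acid exporter sialin (log2 fold 0.39, adjusted p = 0.042). Leaving out any 1 rat other than extract rat 1 or 4 or control rat 1 or 2 ended that call (0.0518 to 0.0996), as did repeated quantile normalization (0.0521), median centring (0.0617), every probe in the fit (0.0807) and the unequal-variance test (0.123).

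Of 29 measured genes of the ATF4 amino acid response 3 rose and 1 fell (13.8%). Over all genes 3.15% passed, and 5.19% of those with a mean of at least 6. The median log2 fold of the 29 was 0.10, and 5 of them had a mean under 6. Their count called was 2 under both filters on dim genes, which leave out Trib3 and Phgdh. Psat1 and Phgdh, enzymes of serine synthesis, rose 1.54-fold (adjusted p = 0.00153; 0.0513 for the mean of all its probes) and 1.46-fold (adjusted p = 0.00709). Trib3, a pseudokinase induced by ATF4, rose 1.61-fold, with 5.44, 5.94 and 6.16 in extract rats against 4.75, 5.23 and 5.49 in controls. Nupr1, a stress-induced nuclear protein, fell to 0.717 of the control level, with every extract rat below every control (adjusted p = 0.00709). Means of Trib3 (5.49) and Phgdh (4.94) lay under 6, so RMA may make their folds too small. Members known to respond to ATF4 include Slc38a2 (0.08), Slc7a1 (0.20), Slc7a5 (-0.24) and Slc1a4 (0.29), and these did not pass. Slc3a2 (0.45) and Slc7a11 (0.84), outside both the rule and this list, passed in limma with the limits given above.

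Of 36 genes of amino acid breakdown and the urea cycle 0 rose and 2 fell (5.56%), with a median log2 fold of 0.03. That share was near the 5.19% of all genes with a mean of at least 6. Gldc, the glycine decarboxylase, fell to 0.592 of the control level, with extract values of 7.39, 7.77 and 7.96 against 7.97, 8.54 and 8.99 in controls (adjusted p = 0.00389). Oat, the ornithine aminotransferase, fell to 0.581 of the control level, with 5 of 7 extract rats below all controls (adjusted p = 0.00697). The unequal-variance test ended both calls (0.052 for Gldc, 0.075 for Oat). Among 22 genes of lysosomal amino acid sensing, which act beside Slc38a9, limma passed 0 (4 at an unadjusted p under 0.05, 0 in the unequal-variance test). Castor2, a relative of the cytosolic arginine sensor, had the smallest p, with a log2 fold of -0.34 and an adjusted p of 0.057. This became 0.0131 without control rat 1 and 0.022 without control rat 5. Castor2 also passed under both filters on dim genes (0.047 and 0.0466), with array weights (0.0295) and without the 2 arrays of lowest weight (0.0226). The count in this list was 2 with array weights, without those 2 arrays and without control rat 1.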

How the data were processed

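Total liver RNA of 14 rats was made into biotin-labelled sense-strand DNA and hybridised to whole-transcript arrays, per the labels' protocols. The authors deposited normalized log2 values for each probe. The submitters' processing notes name RMA and, as software, Affymetrix Expression Console 1.1.2, with options and genome build not given in the sources used here. The log2 scale was read from the range of the deposited values. Of 29215 probes 15310 had 1 gene symbol in GEO's platform annotation, 323 several and 13582 none; symbols were checked through Entrez identifiers against NCBI's GRCr8 gene table, which changed 0. The brightest probe per gene was used, with no filter on dim genes. Groups and rat numbers came from the sample titles, and no batch is given.

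Groups were compared with limma 3.58.1 (lmFit, eBayes, two-sided) in R 4.3.3 over 14506 genes, tested on simulated data. Intervals are 95% from the moderated fit. Named genes were those past the threshold, all liver-expressed members, the dim member of smallest p in each family and, from 5 pathway lists, those that passed or the first by p. The members, lists (with 14 marker lists) and alternatives were chosen with earlier results of these data known. Same-numbered rats did not deviate together (correlations of -0.46 to 0.282 over 7 pairs), so rats were not treated as paired. Alternatives were other normalizations, filters, probe rules, variance models, thresholds and each rat left out.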

Additional observations from a re-analysis of the deposited data

Results flagged for a closer look

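Single rats standing apart were looked for in 62 genes, by whether the gap of the highest or lowest rat to its neighbour exceeded 0.568 of the range of its group of 7. This marked 9 of 124 groups (7.26%), where chance marks about 5%. Among liver-expressed transporters, extract rat 4 stood lowest in Slc7a8 (5.87, the others 6.08 to 6.23), control rat 1 lowest in Slc6a8 (6.50, the others 6.92 to 7.16) and control rat 2 lowest in Slc38a7 (6.68, the others 6.80 to 6.87). Among dim ones, extract rat 4 stood highest in Slc1a3 (4.68, the others 3.97 to 4.15) and extract rat 5 lowest in Slc7a10 (3.76, the others 3.99 to 4.15). Control rat 1 stood highest in Slc6a20a (4.18, the others 3.70 to 3.79), and control rat 7 highest in Slc6a15 (3.23, the others 3.04 to 3.11) and Slc7a12 (3.19, the others 2.83 to 2.98). Of the other genes named, Nupr1 was highest in control rat 1 (12.31, the others 11.72 to 11.92).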

How the results depend on the processing

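Slc38a9 and Slc43a2 were both called after repeated quantile normalization, under both filters on dim genes, with the mean of all probes, with an intensity trend, with array weights and without the 2 arrays of lowest weight (extract rat 4 and control rat 1, an alternative chosen after the data were seen). The number of transporter genes called fell from 2 to 1 after median centring and with every probe of the array, and to 0 in the unequal-variance test per gene; it ranged from 0 to 3 without single rats. The count over all genes was 694 with array weights, 227 in the unequal-variance test and 719 at an adjusted p of 0.1, and 326 to 621 without single rats. With the rat number as a replicate block, 364 genes and the same 2 transporters were called; 2 of 7 extract rats correlated best with the control rat of their own number. The median log2 fold of the liver-expressed members stayed between -0.06 and -0.02 without single rats and was 0.01 with the cut at a mean of 7. Signs turned in 3 uncalled genes: Slc7a2 (-0.007 after repeated quantile normalization, -0.07 without the 2 arrays of lowest weight, -0.10 to 0.08 without single rats), Slc38a2 (-0.04 to 0.22) and Slc38a4 (-0.03 to 0.10). The causes were not tested. Over 38 named genes, 868 of 934 alternative values kept direction and side of the threshold. Most of the 38 were uncalled, many far from the threshold, so this share says little about the called genes. Leaving out single rats ended the call of Slc43a2 in 8 fits, of Slc7a11 in 11, of Slc17a5 in 10 and of Slc38a9 in 2. It ended that of no other called gene among the 38. Genes near background limit what dim members can show.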

Other observations

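Other cell and tissue markers were measured beside the transporters. Over all genes 3.15% passed and 14.8% had an unadjusted p under 0.05. Of 7 markers of perivenous hepatocytes 1 rose and 1 fell: Rhbg, an ammonium carrier, rose 3.58-fold (6.77 to 7.40 in extract rats, 4.88 to 5.55 in controls, adjusted p = 2.71e-08), while Oat fell as given above. Of 8 periportal markers limma passed 0 (2 at an unadjusted p under 0.05, 0 in the unequal-variance test), with Arg1, the arginase of the urea cycle, first (log2 fold 0.20, adjusted p = 0.21). In the bile duct list 1 of 7 fell, Prom1 (-2.22). In the stellate and fibroblast list 1 of 11 passed, Pdgfrb (-0.37, adjusted p = 0.042). That count was 0 with median centring, every probe, an intensity trend, the unequal-variance test (Pdgfrb 0.12) and the replicate block, and without extract rat 2, 3, 4 or 5 or control rat 2, 3, 5, 6 or 7; it was 2 under both filters on dim genes and without extract rat 6. In the intestine and kidney list 1 of 6 passed, Fabp2 (-0.81, adjusted p = 0.023), and the count was 0 with every probe, the unequal-variance test (Fabp2 0.11) and the replicate block, and without extract rat 1 or 2 or control rat 2, 3 or 7. limma passed 0 of 10 lymphocyte, 0 of 4 erythroid, 0 of 7 neutrophil, 0 of 5 adipose, 0 of 8 pancreas and 0 of 5 skeletal muscle markers (1, 0, 0, 1, 1 and 0 at an unadjusted p under 0.05, and 0 in each in the unequal-variance test). Pancreas markers averaged 4.39 to 4.86 per extract rat and 4.43 to 4.72 per control rat, and muscle markers 4.72 to 5.06 per extract rat and 4.56 to 4.86 per control rat.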
